A study of Mus musculus with 3 samples.

Results

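Genes for 9 proteins made by cartilage cells were followed in the mesenchymal cells of ectopic tissue masses in mice: Acan, Comp, Matn3, Matn4, Hapln1, Cnmd, Prg4, Epyc and Ucma. They were picked by symbol, and each of the 9 was found once among the 31053 genes of the deposited tables. Droplet RNA sequencing had been done on masses taken on day 5 after implantation in CD1 mice, an outbred strain, with 1 library for each of 3 groups. The Matrigel library came from implants of only Matrigel, a gel of basement membrane proteins. The IgG library came from Matrigel mixed with rhBMP2, a recombinant protein of the BMP family known to start ectopic cartilage and bone, in mice that received a control IgG. The antibody library came from the same mixture in mice that received nAct Ab, an antibody that neutralizes activin A, a ligand of the TGF-beta family. No IgG is named for the Matrigel mice, so an effect of rhBMP2 and one of IgG cannot be told apart, and neither the age nor the number of animals per library is stated in the labels. With 1 library per group there are no replicates and no test: each value compares libraries, and the 95% intervals, given in parentheses, reflect the number of molecules counted and nothing else. Molecules were counted by unique molecular identifiers (UMIs). A gene is called higher when its ratio reached 1.5, or lower when the inverse did, given 10 or more UMIs in 1 of the groups compared.

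Cartilage gains its stiffness from aggrecan, the product of Acan, a core protein laden with chondroitin sulfate chains that hold water. Aggrecan is bound to hyaluronan, and the link protein made by Hapln1 locks that bond. Comp, a member of the thrombospondin family, and the matrilins, here Matn3 and Matn4, tie collagen fibrils and proteoglycans together. Cnmd encodes chondromodulin, a membrane protein of cartilage that inhibits blood vessel growth, and Ucma encodes a small secreted protein of the upper growth plate. Epyc encodes epiphycan, a small leucine-rich proteoglycan of growth cartilage, and Prg4 encodes lubricin, which coats the joint surface and tendon sheaths rather than filling the cartilage. In development most of these genes, but not Prg4, follow the transcription factor Sox9 and type II collagen, the product of Col2a1.

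A cell counted as mesenchymal when Col1a1, Col1a2 and Col3a1, the chains of collagens I and III, made up at least 1% of its UMIs. This gave 1982 of 8541 cells in the Matrigel, 1478 of 5669 in the IgG and 591 of 5675 in the antibody library, with a median of 8752.5, 17191 and 19185 UMIs per cell. Another 46, 68 and 21 cells lay just below that limit, at 0.5% to 1%, and 26, 161 and 62 just above it, at 1% to 2%. The class held 18832469, 26943485 and 12720134 UMIs. The 8 mesenchymal markers outside the rule, among them Pdgfra, Lum and Dcn, were all present in each library, and their median share of cells with a UMI ran from 84.4% in the antibody to 94.2% in the Matrigel library. Of the chondrocyte markers, Sox9 was found in 23.6%, 78.9% and 50.6% of the cells of the 3 libraries, and Col9a1 was at 0 in the Matrigel cells. The 10 myeloid markers were all present and summed to 263, 160 and 143 CPM (counts per 1000000 UMIs of the class) in the Matrigel, IgG and antibody cells. Tenocyte markers (Scx, Mkx, Tnmd) summed to 8.23, 43.5 and 10.3 CPM in the Matrigel, IgG and antibody cells, and their part in the results was not tested. Cell barcodes were shared by 18 cells of the Matrigel and IgG, 13 of the Matrigel and antibody and 6 of the IgG and antibody libraries.

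Upstream sequence of the genes is shown first, because most of them were higher or lower together. RefSeq windows (build GRCm38.p6) matched 7 of the 9 genes, in 9 windows, and the 250 bases before the annotated start were searched on both strands for 3 letter strings at the core of Sox protein sites. The first string was ACAAAG. The other strings were the letters ACAATG and, able to overlap with it, the letters AACAAT. The coding strand was also searched for the TATA box, TATAAA. The windows of Acan (chr7:79052976-79053225, plus strand), Matn3 (chr12:8947679-8947928, plus strand) and Cnmd (chr14:79662184-79662433, minus strand) stand for genes that were higher in the IgG library, and that of Epyc (chr10:97643818-97644067, plus strand) for the gene that was near 0 in all 3 libraries. None of these 4 windows overlaps an exon in GENCODE M21. Each sequence is written 5′ to 3′ up to the start, with any match in capitals.
Acan: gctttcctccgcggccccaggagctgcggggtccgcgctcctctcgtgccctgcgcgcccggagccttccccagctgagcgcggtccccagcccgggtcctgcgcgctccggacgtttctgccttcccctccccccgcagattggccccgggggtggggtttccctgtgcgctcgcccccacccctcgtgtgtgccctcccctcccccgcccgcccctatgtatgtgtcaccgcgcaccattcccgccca
Matn3: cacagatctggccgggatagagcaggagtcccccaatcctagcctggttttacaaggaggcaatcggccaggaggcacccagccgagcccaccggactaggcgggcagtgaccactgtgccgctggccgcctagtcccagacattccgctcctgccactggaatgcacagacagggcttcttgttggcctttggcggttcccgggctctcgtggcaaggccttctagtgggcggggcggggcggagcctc
Cnmd: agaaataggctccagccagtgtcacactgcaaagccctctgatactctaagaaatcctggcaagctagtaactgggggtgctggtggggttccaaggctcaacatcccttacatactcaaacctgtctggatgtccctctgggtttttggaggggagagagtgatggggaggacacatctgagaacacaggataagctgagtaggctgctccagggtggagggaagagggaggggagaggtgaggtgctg
Epyc: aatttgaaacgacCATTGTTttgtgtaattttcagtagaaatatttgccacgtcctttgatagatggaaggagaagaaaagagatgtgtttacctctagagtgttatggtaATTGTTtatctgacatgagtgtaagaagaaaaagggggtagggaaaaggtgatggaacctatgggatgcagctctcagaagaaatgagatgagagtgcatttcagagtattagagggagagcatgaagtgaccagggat
A Sox string was present in 2 of the 9 windows, both of Epyc, and the 2 capital runs in the Epyc window above hold 3 matches. Of all 32851 mouse windows of this length, 29.6% hold at least 1 of the 3 strings. TATAAA was in none of the 9 windows and in 7.59% of all windows. These matches describe letters within 250 bases and say nothing about distant enhancers.

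In the IgG mesenchymal cells 8 of the 9 genes were higher than in the Matrigel cells, and Epyc was lower from 13 and 10 UMIs, within counting error. Of all 14339 genes with enough UMIs in this comparison, 16.6% were called higher and 21.1% lower. The median log2 ratio was 6.34 over the 9 genes and -0.03 over all genes measured. Captured molecules are counted from the 3′ end, so levels were not divided by gene length.

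Acan, the aggrecan core (chromosome 7, 79053483 to 79115099), had a single UMI in the Matrigel library, or 0.0531 CPM. Its level was 1194 CPM (1181 to 1207) in the IgG and 285 CPM (276 to 294) in the antibody library. Acan was therefore close to absent without rhBMP2 and stood between the extremes with the antibody. The ratio of IgG to Matrigel was 22492 with a counting interval of 4037 to 888410, wide because it rests on that UMI. It is not on one footing with the lower bounds given below for genes without a UMI, which are set against 3 UMIs. Antibody cells stood 4.19-fold lower (4.05 to 4.34) than IgG cells. Hapln1, the link protein gene (chromosome 13, 89539796 to 89611652), had no UMI in the Matrigel library, 121 CPM (117 to 125) in the IgG and 24.1 CPM (21.5 to 27.0) in the antibody library. With the Matrigel class set to 3 UMIs, Hapln1 was at least 761-fold higher in the IgG cells. It was 5.02-fold lower (4.47 to 5.66) in the antibody than in the IgG cells.

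Among the bridging proteins, Comp (chromosome 8, 70373558 to 70382066) measured 0.319 CPM in the Matrigel, 311 CPM (304 to 317) in the IgG and 54.8 CPM (50.8 to 59.0) in the antibody cells. The ratio of IgG to Matrigel was 975 (448 to 2659), and Comp was 5.67-fold lower (5.25 to 6.14) in the antibody than in the IgG cells. Matn3 (chromosome 12, 8947929 to 8972028) gave 9 UMIs in the Matrigel, 1043 in the IgG and 43 in the antibody cells, that is 0.478, 38.7 and 3.38 CPM. The ratio of IgG to Matrigel was 81.0 (42.5 to 178) for Matn3, and its antibody level was 11.5-fold lower (8.44 to 15.9) than the IgG level, the widest gap among the 6 genes with UMIs in both libraries that were lower. Matn4 (chromosome 2, 164389393 to 164405160) differed from Matn3 by a clear level in all libraries, at 9.24 CPM (7.92 to 10.7), 165 CPM (161 to 170) and 71.2 CPM (66.7 to 76.0). Its ratio of IgG to Matrigel was 17.9 (15.4 to 20.9), and it was 2.32-fold lower (2.16 to 2.50) in the antibody cells. Matn4 shares 149 exon bases with Rbpjl on the other strand, away from its 3′ end, and Rbpjl had 1, 31 and 6 UMIs in the Matrigel, IgG and antibody cells.

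Of the remaining genes, Cnmd (chromosome 14, 79637690 to 79662170) had 3 UMIs in the Matrigel, 1061 in the IgG and 60 in the antibody cells, that is 0.159, 39.4 and 4.72 CPM. Its ratio of IgG to Matrigel was 247 (84.4 to 1201), and it was 8.35-fold lower (6.43 to 11.0) in the antibody than in the IgG cells. Ucma (chromosome 2, 4976122 to 4985748) was found in the IgG library alone among these cells, with 66 UMIs in 24 cells and 2.45 CPM (1.89 to 3.12). Set against 3 UMIs, Ucma was at least 15.4-fold higher in the IgG than in the Matrigel cells and at least 10.4-fold lower in the antibody than in the IgG cells. Epyc (chromosome 10, 97644068 to 97682454) gave 13, 10 and 9 UMIs in the Matrigel, IgG and antibody cells, that is 0.690, 0.371 and 0.708 CPM. Its ratio was 0.538 (0.211 to 1.33) for IgG to Matrigel and 1.91 (0.685 to 5.22) for antibody to IgG, and both intervals include 1, so no difference was detectable at this depth.

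Prg4, the lubricin gene (chromosome 1, 150449412 to 150466165), had another order. Its level was 27.3 CPM (25.0 to 29.8) in the Matrigel, 77.3 CPM (74.0 to 80.7) in the IgG and 245 CPM (236 to 253) in the antibody cells. Prg4 was thus highest where Acan, Hapln1, Comp, both matrilins and Cnmd were intermediate, at 3.17 times the IgG level (2.99 to 3.35) and 8.97 times the Matrigel level (8.17 to 9.86). The IgG level was 2.83 times that of the Matrigel cells (2.57 to 3.13). Its exons share 204 bases, at the 3′ end, with Tpr on the other strand, which had 2972, 5944 and 2769 UMIs in the Matrigel, IgG and antibody cells. Whether strand was used in counting is not stated in the labels, and the part of Tpr reads in the Prg4 counts was not tested.

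**Figure D1:**
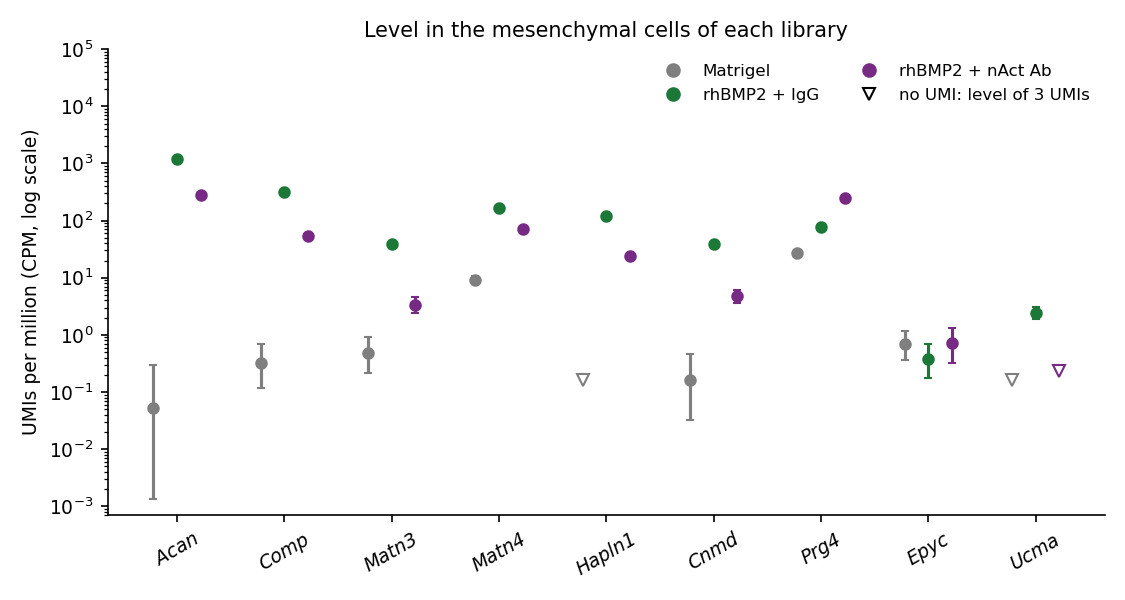
Level of each gene in the mesenchymal cells of the Matrigel (grey), rhBMP2 + IgG (green) and rhBMP2 + nAct Ab (purple) libraries, in CPM on a log scale, with exact Poisson 95% intervals. Open triangles mark 0 UMIs, drawn at the level of 3 UMIs. Acan spans 0.0531 to 1194 CPM, while Prg4 is highest in the antibody library.

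Against the IgG library, 7 of the 9 genes were lower in the antibody library, where 12.7% of 14008 genes were called lower. Prg4 and Epyc, the latter from 9 and 10 UMIs, were higher, against 9.88% of all genes. The median log2 ratio was -2.33 over the 9 genes and -0.08 over all genes measured. Against the Matrigel library, 7 of the 8 genes with enough UMIs were higher in the antibody library, against 11.6% of 13772 genes. That ratio was 5364 (962 to 211922) for Acan, 172 (78.6 to 470) for Comp, 29.6 (9.66 to 148) for Cnmd, 7.71 (6.55 to 9.12) for Matn4 and 7.07 (3.40 to 16.5) for Matn3, and Hapln1 was at least 152-fold higher. These genes thus had a level between those of the Matrigel and IgG cells when the antibody was given. Without the cells whose barcode occurs in another library, the ratio for Matn3 was 4.64. Without the 10 highest cells of each gene in each library, no Matrigel UMI of Hapln1, Acan or Matn3 was left. Set against 3 UMIs, their ratios were then at least 22.2, 1099 and 4.44. These bounds are not on one footing with the values 5364 and 7.07 above. With a collagen limit of 2% the ratio of antibody to Matrigel was 89.9 for Hapln1, again against 3 UMIs, and 16.9 for Cnmd. Without doublet removal it was 96.1 for Comp. The 3 comparisons share libraries, so they are not independent of each other.

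The genes were next ordered by the share of mesenchymal cells with at least 1 UMI, after each cell was thinned to 1000 UMIs so that depth was equal. Thinned IgG cells had Acan in 38.1% of cells (35.6 to 40.7), Comp in 16.8% (14.9 to 18.8) and Matn4 in 11.6% (9.97 to 13.3). Hapln1 followed at 6.86% (5.61 to 8.29), Prg4 at 4.85% (3.80 to 6.09), and Matn3 and Cnmd each at 3.05% (2.22 to 4.07). Ucma stood at 0.208%, and Epyc was seen in no cell, which allows up to 0.255% of cells with a UMI at that depth. At full depth 9 cells, or 0.609%, had an Epyc UMI. At 1000 UMIs, Acan, Comp and Matn4 were separated beyond counting error, while the intervals of Hapln1 and Prg4, and of Prg4 and the pair below it, overlapped. At full depth the shares were 55.5% for Acan, 45.5% for Matn4, 38.9% for Comp and 20.4% for Hapln1. Thinned to 5000 UMIs, Matn4 was in 32.6% and Comp in 31.4% of cells, so the order of these 2 genes at 1000 UMIs did not hold at that depth either. Shares that place Matn4 above Comp go against their CPM, and no order was read from them.

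In the antibody library the thinned shares were 12.7% (10.0 to 15.6) for Prg4, 10.9% (8.49 to 13.8) for Acan, 5.03% (3.39 to 7.14) for Matn4 and 3.81% (2.40 to 5.72) for Comp. Hapln1 stood at 1.04%, Cnmd at 0.520% and Matn3 at 0.173%, with intervals that overlapped. Without thinning, the antibody shares were 32.8% for Prg4, 21.3% for Matn4 and 18.8% for Acan, so Matn4 passed Acan there. Thinned to 5000 UMIs, they were 24.3% for Prg4, 17.0% for Acan and 12.2% for Matn4. Prg4 thus preceded Acan by share at each depth but not by CPM. At 1000 UMIs the intervals of the 2 shares overlapped, so no order was read between them at that depth. In the Matrigel library Prg4 was found in 2.25% (1.63 to 3.02) and Matn4 in 1.20% (0.764 to 1.80) of thinned cells, and of the other 7 genes only Epyc had a UMI, in 0.0523%. At full depth Prg4 and Matn4 were in 10.7% and 6.51% of cells. Free RNA was gauged in myeloid cells, taken to lack these genes: of thinned IgG myeloid cells 1.52% had an Acan UMI, 0.880% a Comp UMI and 0.480% a Matn4 UMI, and the median depth of these cells was 3241 UMIs before thinning. The antibody myeloid cells, of median depth 4577, had 0.437% for Comp, 0.278% for Matn4 and 0.0795% for Acan. For Comp these cells are a poor gauge, since the Matrigel myeloid cells had 3.0 CPM of Comp against 0.319 CPM in the mesenchymal cells, and the antibody myeloid cells had Comp more often than Acan. The IgG mesenchymal shares of Acan, Comp and Matn4 were above the myeloid shares of that library.

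**Figure D2:**
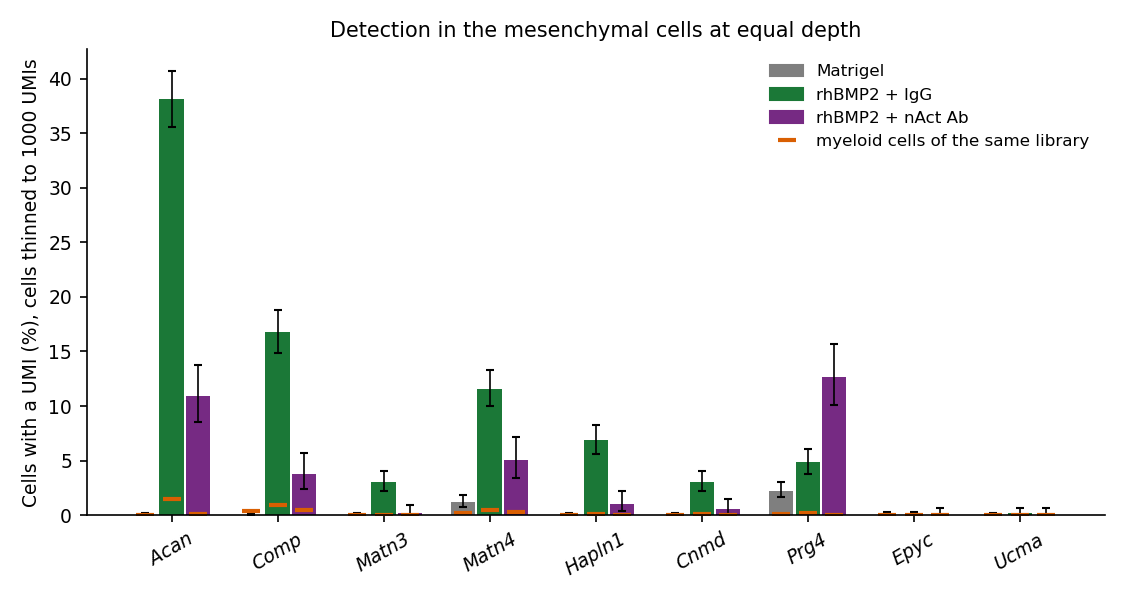
Share of mesenchymal cells with at least 1 UMI of each gene after thinning every cell to 1000 UMIs, by library, with exact Clopper-Pearson 95% intervals. Orange marks give the same share in myeloid cells of the library. Acan reaches 38.1% in the IgG library, against 1.52% in its myeloid cells.

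Col2a1 divided the mesenchymal cells further. A Col2a1 UMI was found in 1 Matrigel, 539 IgG (36.5%) and 58 antibody (9.81%) mesenchymal cells. In the IgG library, 7 of the 8 measured genes were higher in cells with than without a Col2a1 UMI, against 6.21% of 13329 genes, and Prg4 was lower, against 13.1% of all genes. The median log2 ratio was 3.32 over the 8 genes and -0.06 over all genes. In the antibody library all 7 measured genes were higher in the Col2a1-positive cells, against 11.0% of 12663 genes. Depth was alike in the IgG cells, with medians of 18046 UMIs with and 16565 without Col2a1, but differed in the antibody cells, at 26332.5 and 18781.

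The genes differed in how strictly they kept to Col2a1-positive cells. Hapln1 was at 296 CPM in IgG cells with Col2a1 and 5.79 CPM without, a ratio of 51.1 (41.6 to 63.4). Ucma had 64 UMIs with and 2 without Col2a1, for a ratio of 48.5 (12.9 to 409). Cnmd stood at 92.6 and 4.25 CPM, a ratio of 21.8 (17.0 to 28.2). These 3 genes had the highest ratios among the 8 measured, although the interval of Ucma is wide. Matn3 had a ratio of 12.6 (10.3 to 15.5) and Comp one of 7.91 (7.46 to 8.39). Acan was at 2155 CPM with and 560 CPM without Col2a1, a ratio of 3.85 (3.76 to 3.95), near that of Matn4 at 3.54 (3.32 to 3.78). Acan and Matn4 were thus well represented in cells where no Col2a1 was captured.

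Cells without a Col2a1 UMI still carried several of the genes. At full depth, 41.4% of the 939 such IgG cells had an Acan UMI, 31.9% a Matn4 UMI, 24.9% a Comp UMI and 21.2% a Prg4 UMI. Thinned to 1000 UMIs, the shares were 24.1% for Acan (21.3 to 27.0), 7.18% for Matn4 (5.59 to 9.06) and 6.41% for Comp (4.90 to 8.21), above the myeloid values in each case. Hapln1, at 0.884% (0.382 to 1.73), and Matn3, at 0.442% (0.121 to 1.13), were rarer, against 0.0800% and 0% of the IgG myeloid cells. Compared with Matrigel cells lacking Col2a1, Acan measured 560 against 0.0531 CPM, Comp 82.9 against 0.319 CPM and Matn4 82.2 against 9.24 CPM. No Col2a1 UMI does not show that a cell lacked Col2a1 RNA.

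The lower level in the antibody library was also present inside each Col2a1 class. Among cells without Col2a1, 6 of the 7 measured genes were lower in the antibody than in the IgG library, against 11.8% of 13405 genes: Acan by 3.64-fold (3.46 to 3.84), Comp by 4.0-fold (3.48 to 4.62), Matn3 by 3.33-fold (2.11 to 5.47), Cnmd by 2.62-fold (1.54 to 4.68), Hapln1 by 2.07-fold (1.37 to 3.22) and Matn4 by 1.82-fold (1.65 to 2.03). Among cells with Col2a1, 6 of 8 were lower, against 15.9% of 12460 genes. There Matn3 was 7.04-fold lower (4.53 to 11.6), Cnmd 3.57-fold (2.62 to 4.99), Comp 2.28-fold (2.07 to 2.51), Acan 1.82-fold (1.74 to 1.91) and Hapln1 1.74-fold (1.54 to 1.97). Ucma, with 64 UMIs in these IgG cells and none in the antibody cells, was at least 3.23-fold lower. With Col2a1, Matn4 stood at 291 CPM (IgG) and 250 CPM (antibody), a ratio of 0.860 (0.773 to 0.954) that was not called. For Acan, Comp, Matn3, Matn4, Hapln1 and Cnmd the ratios within both classes were nearer to 1 than the ratio over all mesenchymal cells. The antibody cells with Col2a1 also held less of it, at 2178 CPM against 3609 CPM in the IgG library.

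**Figure D3:**
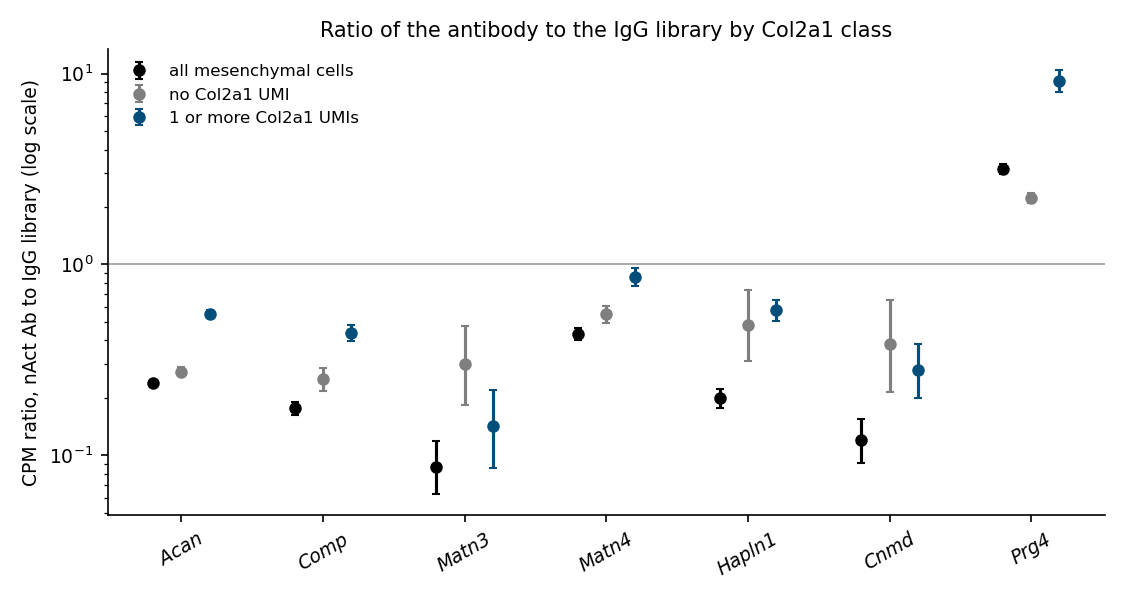
Ratio of CPM in the antibody to the IgG library for 7 genes over all mesenchymal cells (black), those without a Col2a1 UMI (grey) and those with at least 1 (blue), on a log scale with exact 95% counting intervals. Points under the grey line are lower in the antibody library. Only Prg4 lies above it, at 3.17, 2.23 and 9.12.

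Prg4 ran against the other genes in this split. In the IgG library it was at 38.3 CPM with and 103 CPM without Col2a1, a ratio of 0.371 (0.332 to 0.414), whereas the antibody library gave 349 and 229 CPM, a ratio of 1.52 (1.39 to 1.67). In cells without Col2a1 the antibody level of Prg4 was 2.23 times the IgG level (2.09 to 2.37), and in cells with Col2a1 9.12 times (8.02 to 10.4). The 30 antibody cells with 1 to 9 Col2a1 UMIs had 439 CPM of Prg4 and the 18 with 10 to 99 had 471 CPM. In the IgG library these classes had 51.8 and 28.7 CPM, from 263 and 159 cells. Of the 30 antibody cells, 1 held 83 Prg4 and 8 Col2a1 UMIs, and its barcode also occurred in a mesenchymal cell of the Matrigel library. The Prg4 values by Col2a1 were not computed without that cell. In cells with 100 or more Col2a1 UMIs Prg4 was low in both, with 3 UMIs in 10 antibody cells and 53 in 117 IgG cells. In that class Prg4 was not called higher in the antibody library. The higher call in the antibody library's Col2a1-positive cells was lost when positive meant at least 3 Col2a1 UMIs, at a ratio of 1.26. Of the 294 IgG cells with Prg4, 40.5% (34.8 to 46.3) also had Acan, against 55.5% of all IgG mesenchymal cells, and of the 194 antibody cells with Prg4, 7.22% (4.0 to 11.8) had Acan, against 18.8% of all. Prg4 and Acan were thus found together in a smaller share of the Prg4 cells than Acan was in all cells. None of the 24 IgG cells with Ucma had a Prg4 UMI.

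Dividing the cells by 0, 1 to 9, 10 to 99 and 100 or more Col2a1 UMIs, bounds chosen after seeing the data, gave 939, 263, 159 and 117 IgG cells. The highest class is 7.92% of the IgG mesenchymal cells. It held 77.6% of the Hapln1, 69.7% of the Ucma, 62.7% of the Matn3, 53.3% of the Cnmd and 47.5% of the Comp UMIs, but 32.3% of the Acan, 31.4% of the Matn4 and 2.54% of the Prg4 UMIs. Across the 4 classes Acan stood at 560, 899, 2575 and 4274 CPM, and Hapln1 at 5.79, 23.9, 164 and 1042 CPM. Prg4 stood at 103, 51.8, 28.7 and 21.8 CPM. Acan therefore spread widely over classes in which Hapln1 was scarce. In the antibody library the 10 cells with 100 or more Col2a1 UMIs held 78.8% of the Hapln1, 46.7% of the Cnmd, 41.6% of the Comp and 27.1% of the Acan UMIs.

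**Figure D4:**
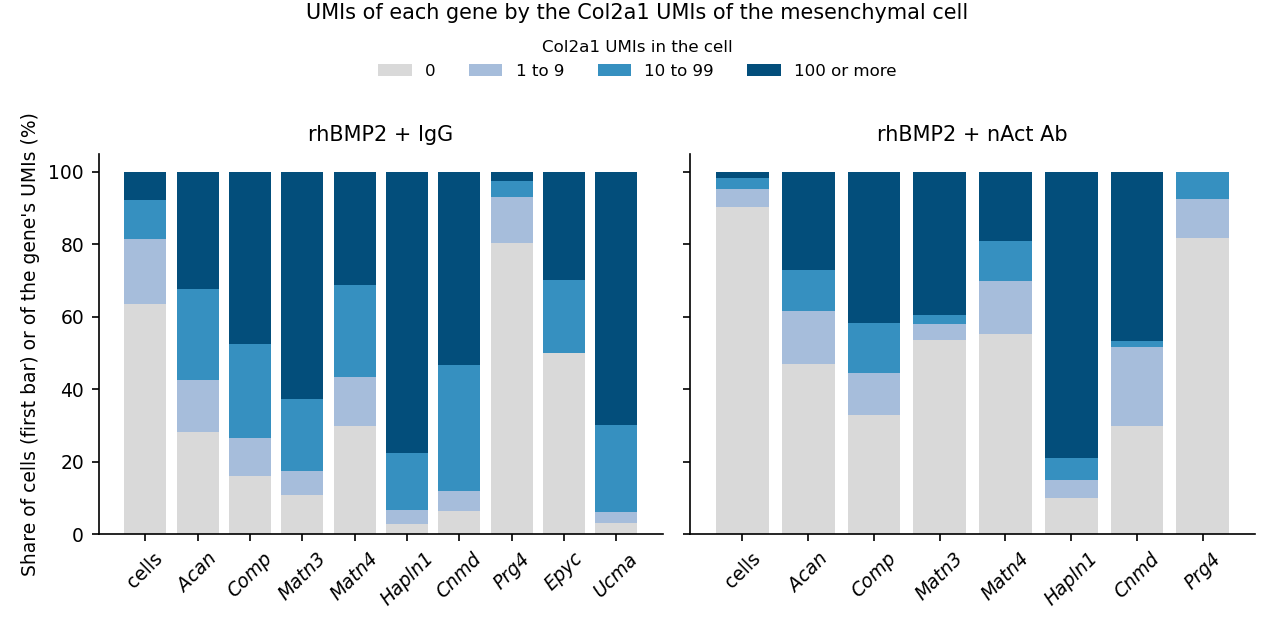
Share of mesenchymal cells (first bar) and of each gene's UMIs by the Col2a1 UMIs of the cell, for the IgG (left) and antibody (right) libraries; genes with fewer than 10 UMIs are left out. In the IgG library 80.3% of Prg4 UMIs but 2.88% of Hapln1 UMIs lie in cells without Col2a1.

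The UMIs of several genes came from few cells. Of the IgG library's Acan UMIs, 50% lay in 145 cells and of the Matn4 UMIs in 114 cells, against 62 cells for Comp, 32 for Matn3, 31 for Hapln1, 23 for Cnmd, 22 for Prg4 and 5 for Ucma. The 10 highest of the 1478 cells held 6.33% of Acan, 11.2% of Matn4, 14.9% of Comp, 24.9% of Hapln1, 28.7% of Matn3, 32.0% of Cnmd, 35.8% of Prg4 and 74.2% of Ucma UMIs. Among these 8 genes Acan and Matn4 were the most evenly spread and Ucma the least. Epyc is left out, since its 10 UMIs lay in 9 cells, and genes with fewer UMIs are held by fewer cells for that reason too. The 10 deepest IgG cells held 2.67% of all UMIs of the class.

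In the antibody library 50% of the UMIs lay in 16 cells for Acan, 14 for Matn4, 10 for Comp, 4 for Hapln1, 3 for Cnmd and 2 for Matn3. The 10 highest of its 591 cells held 38.6% of Acan, 41.8% of Matn4, 52.2% of Comp, 79.1% of Matn3, 85.3% of Hapln1 and 96.7% of Cnmd UMIs. Over the highest 1% of cells, 15 in the IgG and 6 in the antibody library, the shares for Acan were 8.94% and 26.3%, for Comp 20.0% and 37.2%, for Hapln1 32.7% and 71.7%, and for Cnmd 40.4% and 88.3%. On both measures 6 of the 7 genes with at least 10 UMIs in each library were more concentrated in the antibody library. Prg4 was the exception, with 35.8% and 34.1% in the 10 highest cells and 43.0% and 24.2% in the highest 1%. Since 10 cells are a larger part of 591 than of 1478, the measure by percent of cells is the fairer of the 2. The other 6 genes also had fewer UMIs in the antibody library, which places them in fewer cells for that reason too. No such count was made over all genes, so these 6 cannot be set apart from genes at large. The same concentration shows in the ratio of antibody to IgG without the 10 highest cells of each gene in each library, which was 0.156 for Acan, 0.0990 for Comp, 0.282 for Matn4, 0.0389 for Hapln1 and 0.0256 for Matn3. Since those cells are a larger part of the antibody class and were ranked by the gene itself, this adds nothing to the shares above, and Cnmd had too few UMIs left for a ratio. Depth moves with this, since the 10 deepest antibody cells held 5.94% of the UMIs, and its part was not tested.

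A single antibody cell weighed on several of these values. This cell had 55778 UMIs, and its barcode also occurred in a myeloid cell of the Matrigel library. It held 191 of the 3623 Acan, 41 of the 307 Hapln1, 9 of the 60 Cnmd and 15 of the 43 Matn3 UMIs of the antibody mesenchymal cells, together with 468 Col2a1 UMIs. Without the cells whose barcode occurs in another library, the ratio of antibody to IgG for Matn3 was 0.0572, against 0.0873 with them.

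**Figure D5:**
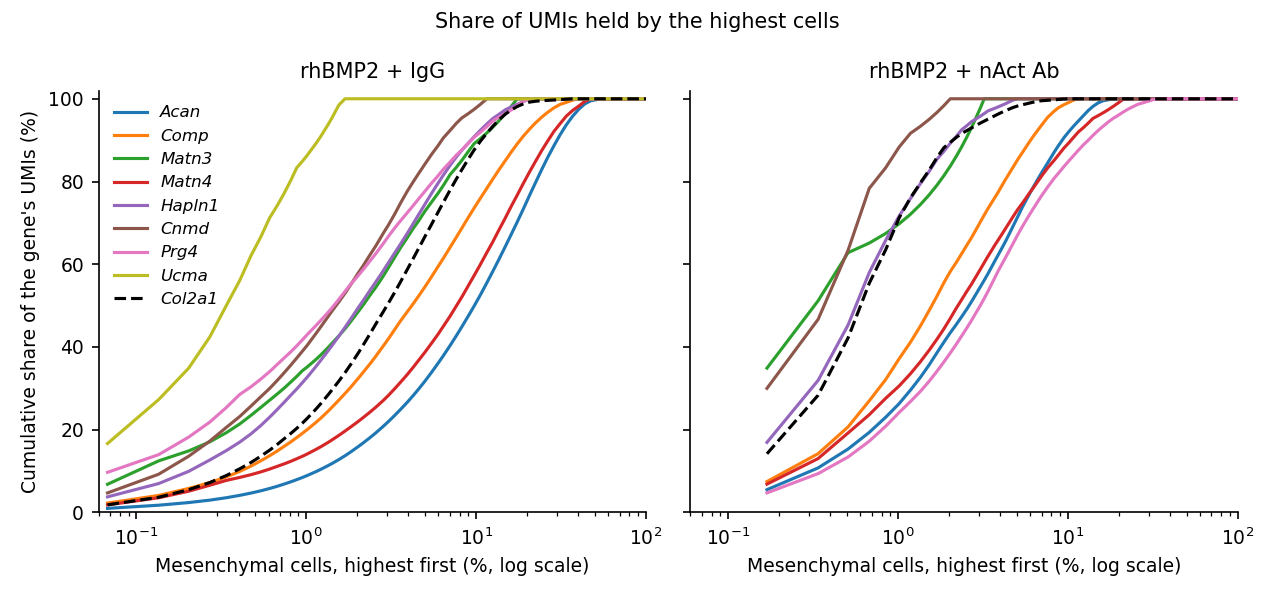
Cumulative share of each gene's UMIs against the share of mesenchymal cells, ordered from the highest cell and on a log scale, for the IgG (left) and antibody (right) libraries; Col2a1 is dashed. The highest 1% of cells hold 8.94% of the Acan UMIs in the IgG and 26.3% in the antibody library.

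In the IgG library several of the genes were carried in nested sets. All 24 IgG cells with Ucma also had Acan and Matn4, 23 had Comp and 22 had Matn3, Hapln1 and Col2a1. Of the 302 IgG cells with Hapln1, 287 had Acan, while 35.0% of the 820 cells with Acan had Hapln1. Of the 171 cells with Cnmd, 94.2% had Acan and 88.9% had Comp, while 19.6% of the Acan cells had Cnmd. Cells with Acan were thus the wide set in the IgG library, and those with Hapln1, Cnmd and Ucma lay mostly inside it. Prg4 and Epyc did not follow this: 119 of 294 and 5 of 9 cells had Acan, against 55.5% of all. In the antibody library Acan was in 26 of 29 Hapln1, 10 of 12 Cnmd and 52 of 66 Comp cells. It was in 13 of 19 Matn3 and 71 of 126 Matn4 cells there, against 18.8% of all. The median number of the 9 genes found per cell was 1, 2, 4 and 5 in IgG cells with 0, 1 to 9, 10 to 99 and 100 or more Col2a1 UMIs. None of the 9 was found in 30.8% of the IgG and 49.3% of the antibody cells without Col2a1. These shares are at full depth, and deeper cells show more genes.

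Genes with the most similar pattern were ranked by Pearson's r of log-normalized values over the 1478 IgG mesenchymal cells, among genes found in at least 5% of them. These r values are descriptions over cells of 1 library that share its depth and free RNA. For Acan the closest were Col11a1 (r = 0.69), Wwp2 (0.69), C1qtnf3 (0.67) and Frzb (0.66). Hapln1 was closest to Col2a1 (0.79), Col9a1 (0.74), Col9a3 (0.72) and Col11a2 (0.72), and Comp to Col9a1 (0.72), Col11a2 (0.67), Col9a2 (0.65) and Col9a3 (0.65). The 4 genes closest to Comp were all chains of the cartilage collagens IX and XI. Matn4 was closest to Col11a1 (0.67), Col9a1 (0.65), Col11a2 (0.63) and Comp (0.63), and Matn3 to Hapln1, Col9a3 and Col9a1 (0.63 each) and Col11a2 (0.57). Cnmd was closest to Scrg1 (0.62), Sorbs2 (0.56), Col9a2 (0.56) and Matn3 (0.55). Prg4 instead headed a list of Adamts5 (0.42), which encodes an enzyme that cleaves aggrecan, Tnxb (0.42), Rarres2 (0.41) and C3 (0.40). In the 591 antibody cells the same 4 genes had r of 0.05, 0.04, 0.18 and 0.14 with Prg4. With their own 4 closest genes, r in the antibody cells ran from 0.30 to 0.37 for Matn3 and from 0.27 to 0.54 for Cnmd. Matn3 and Cnmd were found in 19 and 12 of those cells. For Acan, Hapln1, Comp and Matn4, r with their own 4 closest genes ran from 0.50 to 0.73 there. The r of Prg4 with Acan was -0.20 in the IgG and -0.15 in the antibody cells.

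Genes that build, sulfate and degrade proteoglycans were compared in the same cells. Of 21 genes for chondroitin sulfate synthesis and sulfation, all measured, 9 were higher and 2 lower in the IgG than in the Matrigel cells, where 16.6% and 21.1% of all genes were. In the antibody against the IgG cells 9 were lower and none higher, where 12.7% and 9.88% of all genes were. Their median log2 ratios were 0.34 and -0.46, against -0.03 and -0.08 over all genes. Slc26a2, the sulfate transporter of chondrocytes, had 36.2, 380 and 127 CPM in the Matrigel, IgG and antibody cells. Chsy1, a chondroitin synthase, had 73.9, 156 and 92.2 CPM in that order. Chpf (138, 104 and 82.9 CPM) and Chst12 (81.6, 70.4 and 63.9 CPM) were not called in either comparison.

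The 16 genes for proteoglycan assembly and turnover went both ways, with 5 higher, 4 lower and 4 between among the 13 measured in the IgG against the Matrigel cells (16.6% of all genes higher and 21.1% lower). Vcan, the large proteoglycan versican, had 528, 641 and 556 CPM in the Matrigel, IgG and antibody cells, and Hspg2, perlecan, 489, 427 and 406 CPM. Neither was called in those comparisons. Adamts5 stood at 535, 76.7 and 245 CPM in that order. This was 6.98-fold lower (6.66 to 7.32) in the IgG than in the Matrigel library and, with the antibody, 3.20 times the IgG level (3.03 to 3.38). Cd44, the hyaluronan receptor, was at 519, 186 and 528 CPM. Against the IgG library 4 of the 13 measured genes were higher and 4 lower in the antibody library (9.88% and 12.7% of all genes). Their median log2 ratios were -0.07 for IgG to Matrigel and -0.21 for antibody to IgG, against -0.03 and -0.08 over all genes.

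Other cartilage genes were mostly higher in the IgG library, as Acan was. Of 38 listed genes, 37 were found in the tables and 28 were measured for IgG against Matrigel, with 21 higher and 5 lower (16.6% and 21.1% of all genes) and a median log2 ratio of 2.58. For antibody against IgG 26 were measured, with 22 lower and 1 higher (12.7% and 9.88% of all genes) and a median of -1.53. Fmod, a collagen-binding proteoglycan, was at 49.8, 1571 and 861 CPM in the Matrigel, IgG and antibody cells, Col11a1 at 21.9, 897 and 179 CPM, and Col2a1 at 0.0531, 1436 and 278 CPM. Ogn, a small proteoglycan of connective tissue, was at 1031, 212 and 240 CPM. Of the 4 thrombospondin relatives of Comp, Thbs1 had the order of Comp at smaller ratios, with 237, 528 and 374 CPM in the Matrigel, IgG and antibody cells, and its ratio of antibody to IgG was not called. Thbs2 had 1061, 933 and 606 CPM, Thbs3 208, 108 and 133 CPM, and Thbs4 115, 9.72 and 23.3 CPM in that order. Of the 4, 1 was higher and 2 were lower in the IgG than in the Matrigel cells (16.6% and 21.1% of all genes), and 1 was higher and 1 lower in the antibody than in the IgG cells (9.88% and 12.7% of all genes).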

How the data were processed

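One droplet library per group was analysed, 3 in all (10x 3′ v3 kit, as the labels' protocols say). The deposited tables hold raw UMI counts per gene and barcode, made with Cell Ranger 3.0.2 on mm10, per the submitters' processing notes. They hold 9249, 6065 and 6113 barcodes with 44252421, 46317250 and 38163880 UMIs for the Matrigel, IgG and antibody libraries.

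Barcodes were dropped below 300 genes or 500 UMIs, or when mitochondrial UMIs exceeded 15%. Scrublet (scanpy 1.11.5) called 2, 3 and 4 doublets by its own threshold, so the 682, 289 and 292 highest scores were removed instead, at 0.8% per 1000 barcodes. Each gene's UMIs were added up within a class and divided by the class total (CPM, per 1000000 UMIs). Intervals at 95% are exact Poisson for levels, exact binomial for ratios and Clopper-Pearson for shares, and a level of 0 was set to 3 UMIs in ratios. Molecules are not replicates, so the intervals cover counting error only. The ratios of class sums were tested on simulated counts, and thinning was checked on IgG cells for the depth reached only. The genes and lists were chosen with earlier results of these data known. Named besides the 9 genes were the 4 most abundant measured genes of each list and the 4 most similar genes of each gene found in at least 5% of IgG mesenchymal cells, with Adamts5 also named for its similarity to Prg4. Alternatives changed the cell filters, doublet removal, collagen limit, scaling, thinning and thresholds. Positions are from GENCODE M21 on mm10, which holds 30934 of the 31053 gene IDs.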

Additional observations from a re-analysis of the deposited data

Results flagged for a closer look

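Comp was more abundant outside the mesenchymal cells of the Matrigel library than in them, in cells that no comparison above uses. Its level was 3.0 CPM in the myeloid cells, from 57 UMIs in 56 cells with at most 2 per cell, and 4.57 CPM in the cells of no named class, from 10 UMIs in 7 cells. The mesenchymal cells of that library had 0.319 CPM.

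Prg4 had opposite directions in the IgG and the antibody library when cells with a Col2a1 UMI were set against those without. The ratio was 0.371 in the IgG and 1.52 in the antibody library, and the difference between them was not tested. The second ratio was 1.26 when positive cells had at least 3 Col2a1 UMIs and 1.49 with a collagen limit of 0.5%, both short of the ratio of 1.5 that was called.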

How the results depend on the processing

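For 43 gene ratios, 14 alternative settings gave 360 values, of which 50 moved by more than 1.5 times. None reversed a ratio that had reached 1.5, or whose inverse had, in the main setting. For ratios nearer to 1 a change of direction was not counted. In 6 values the ratio or its inverse no longer reached 1.5. Those 6 were the ratio of Prg4 between antibody cells with and without Col2a1 (1.26 with at least 3 Col2a1 UMIs and 1.49 with a collagen limit of 0.5%), that of Matn3 in the same cells (1.44 at a limit of 2%, against 5.95), that of Epyc in the IgG cells (1.42 at 2%), and the ratios of antibody to IgG over Col2a1-positive cells alone, 1.32 for Epyc and 0.860 for Matn4. The ratio of Epyc between IgG cells with and without Col2a1 rested on too few UMIs to be called in the main setting. Without doublet removal the ratio of IgG to Matrigel for Comp was 576. The counts of genes called in each comparison stayed within 1.5 times, and those of antibody against Matrigel fell from 7 to 5 without the 10 highest cells of each gene. In the order of detection, 4 of the 9 genes had the same rank in the antibody library without thinning. In the Matrigel library the number was 2 with cells thinned to 5000 UMIs and 2 without thinning, where 6 genes tied at 0 at 1000 UMIs were no longer all tied and Matn3 passed Epyc. Scaling by the median ratio of genes shifted the comparison of antibody with Matrigel by -0.12 on the log2 scale. Analyses restricted to cells with or without Col2a1 were added after seeing the data. No paired analysis was possible because each group had 1 library.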

Other observations

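Outside the mesenchymal cells, Matn4 was found in the B cells of the antibody library, with 21 UMIs in 16 of 472 cells, or 27.1 CPM (16.8 to 41.5). After thinning to 1000 UMIs, 2.49% of these B cells (1.25 to 4.42) had a Matn4 UMI, against 0.278% (0.112 to 0.573) of the myeloid cells of that library. In the IgG library, the cells of no named class held 917 Acan UMIs in 76 of 1215 cells, or 160 CPM, and 208 Comp UMIs in 49 cells.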
